A study of Mus musculus with 18 samples.

Results

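Collagens are the fibrous and network-forming proteins of the extracellular matrix, and the genes described here are the 44 mouse genes whose symbol is Col, a number, the letter a and a second number. They were found by matching the 43430 gene identifiers of the count table to mouse symbols. Of the 44, 38 had at least 10 counts in at least 3 of the 18 libraries, and the same 38 were among the 13596 genes tested. RNA was sequenced from myofibers of the quadriceps of adult male and female C57BL/6 mice (C57BL/6J in the study's methods), in 6 groups of 3 libraries by sex and treatment. All mice were injected intraperitoneally for about a month, with the solvent alone (vehicle, DMSO), with prednisone every day (daily), or with prednisone on a single day of the week and vehicle on the other days (weekly). Prednisone is a synthetic glucocorticoid. The muscle was sliced and digested with collagenase II, and the material that a strainer held back was extracted, so cells lying between and on the fibers can be part of each sample.

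A collagen molecule is a helix of alpha chains, each with its own gene, and the chains must be hydroxylated on proline and lysine, glycosylated, folded and exported before they assemble outside the cell. Fibril-forming collagens such as types I, III and V make the fibrils of connective tissue, type IV makes the sheet-like basement membrane that wraps every myofiber and capillary, and type VI makes beaded filaments that tie that membrane to the interstitium. In muscle most collagen is made by fibroblasts of the connective tissue, with contributions from tendon, vessel, nerve and muscle cells. Glucocorticoids are known to lower collagen synthesis in skin and in cultured fibroblasts.

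The libraries held between 10506661 and 14686654 counts. Their groups were mapped from the titles, and no pair of libraries in a group agreed within sampling noise. Per the study, the 3 libraries of a group came from 3 animals. Levels are in CPM, the usual unit of counts scaled to library size, here the effective size after TMM normalisation. Markers of myofibers summed to between 113000 and 202000 CPM, against 1250 to 3270 CPM for 10 fibroblast markers, 431 to 1970 CPM for 8 tenocyte markers, 457 to 1200 CPM for 7 endothelial markers and 579 to 9420 CPM for 10 adipocyte markers. In these bulk samples, fewer cells of a type and less RNA per cell cannot be told apart. Transcripts encoded by mitochondrial DNA took between 11.7% and 36.4% of the counts.

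The collagens expressed most per length were those of types I, IV, III and VI. In the 6 vehicle libraries, *Col1a2* (chr6:4504814-4541543 on the plus strand, mm10), the alpha 2 chain of type I, had the highest mean at 145 ± 80.1 CPM per kilobase of transcript (SD, n = 6). It was followed by *Col4a1* (chr8:11198423-11312826, minus strand), the alpha 1 chain of type IV, at 92.6 ± 21 CPM per kilobase and by *Col1a1* (chr11:94936224-94953042, plus strand), the other chain of type I, at 89.6 ± 44.7 CPM per kilobase. *Col3a1*, whose product makes the fine fibrils of extensible tissue, came to 77.6 ± 21.7 CPM per kilobase, and *Col4a2*, the partner of *Col4a1*, to 68.6 ± 14.7. The 6 vehicle values of these 5 genes overlapped with those of their neighbours in the order. Within every library *Col1a2* lay above *Col1a1* and *Col4a1* above *Col4a2*, by the ratios given below. The order of the other pairs was not compared within libraries. *Col6a2* and *Col6a1* followed at 37.4 ± 11.4 and 36.2 ± 11.4 CPM per kilobase.

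**Figure D1:**
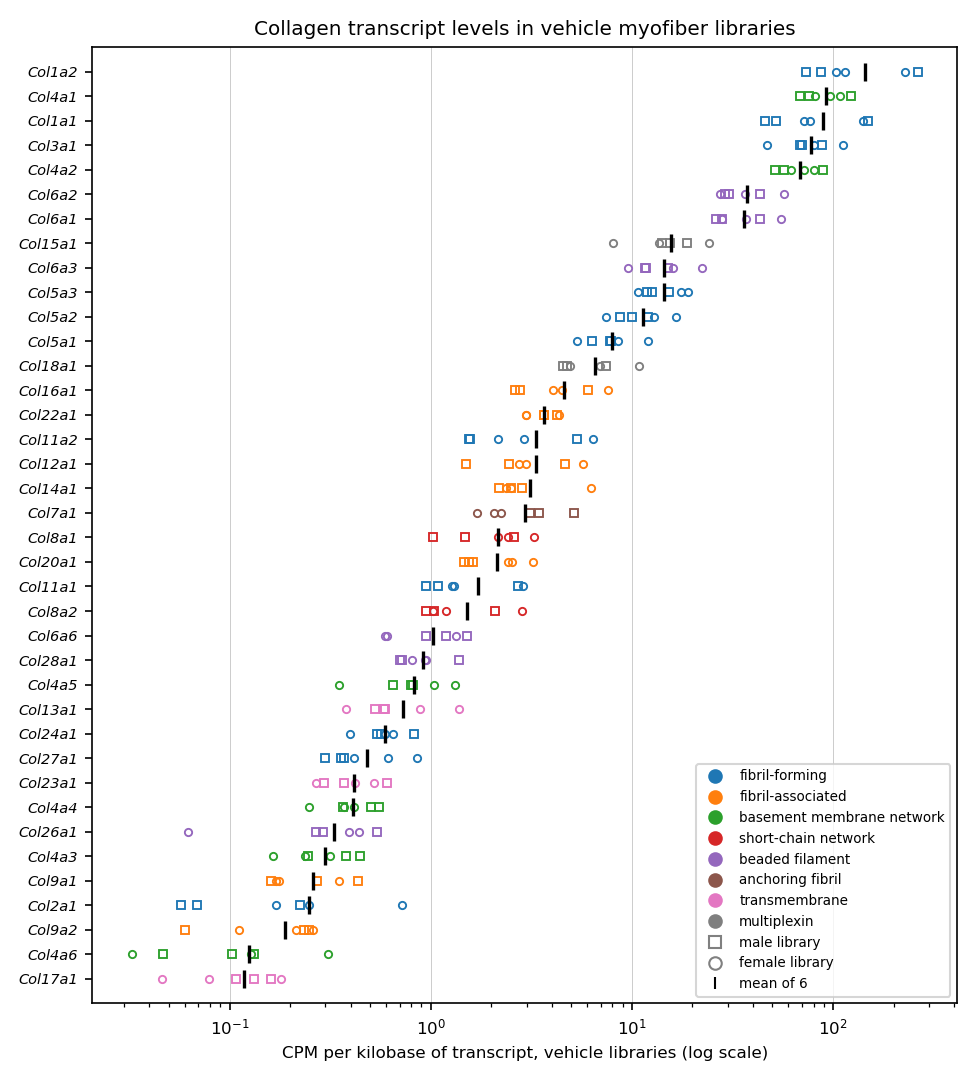
Levels of the 38 collagens in the 6 vehicle libraries, in CPM per kilobase of transcript on a log scale, coloured by class, with squares for male and circles for female libraries and a bar for the mean of 6. *Col1a2* is highest at 145 CPM per kilobase and *Col17a1* lowest at 0.118, and the values of neighbouring genes overlap along most of the order.

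The remaining collagens lay well below these. *Col15a1*, a basement membrane collagen with chondroitin sulphate chains, had 15.7 ± 5.43 CPM per kilobase in vehicle libraries, and *Col6a3* and *Col5a3* had 14.5 ± 4.61 and 14.5 ± 3.37. *Col5a2* and *Col5a1*, the chains of type V that set the width of type I fibrils, had 11.3 ± 3.31 and 7.98 ± 2.30 CPM per kilobase. *Col18a1*, the precursor of endostatin, had 6.58 ± 2.43. Fibril-associated collagens, which decorate fibrils rather than form them, ranged from *Col16a1* at 4.61 ± 1.94 CPM per kilobase through *Col22a1* at 3.65 ± 0.594, *Col12a1* at 3.33 ± 1.54 and *Col14a1* at 3.12 ± 1.57 down to *Col9a2* at 0.188 ± 0.0826. *Col22a1* is the collagen of the myotendinous junction. *Col7a1*, which makes the anchoring fibrils of skin, had 2.96 ± 1.26 CPM per kilobase. The type IV chains of kidney and specialised basement membranes were rare, with *Col4a5* at 0.828 ± 0.329, *Col4a4* at 0.410 ± 0.110, *Col4a3* at 0.298 ± 0.103 and *Col4a6* at 0.125 ± 0.0993 CPM per kilobase. The cartilage collagen *Col2a1* had 0.248 ± 0.244. *Col11a2*, *Col11a1*, *Col24a1* and *Col27a1*, the other fibril-forming genes, had means of 3.33, 1.71, 0.596 and 0.485 CPM per kilobase. *Col8a1* and *Col8a2*, which form the short-chain networks of vessels and cornea, had 2.16 and 1.52, and *Col20a1* had 2.13. *Col6a6*, *Col28a1* and *Col26a1* had 1.03, 0.916 and 0.332 CPM per kilobase. The transmembrane collagens *Col13a1*, found at the neuromuscular junction, *Col23a1* and *Col17a1*, of the hemidesmosome, had 0.727, 0.414 and 0.118, and *Col9a1* had 0.261.

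The other 6 genes did not reach 10 counts in 3 libraries. *Col9a3*, *Col6a5* and *Col19a1* reached 10 counts in 1 library each, with 13, 10 and 10 counts at most. *Col25a1*, *Col6a4* and *Col10a1* reached it in none, with at most 7, 4 and 1 counts. *Col10a1* is the collagen of hypertrophic cartilage, and its total over the 18 libraries was 1 count. By the annotation 28 of the 44 genes overlap another gene and 5 overlap a protein-coding gene, *Col4a1* and *Col4a2* among them. Of the 38 genes that passed, 32 had at least 10 counts in every library. The 6 that did not were *Col26a1* (13 libraries), *Col2a1* and *Col4a6* (10 each), *Col9a1* (8), and *Col9a2* and *Col17a1* (4 each).

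Collagen levels differed widely between libraries of the same group. The 44 genes together made up 0.180% to 0.533% of all counts, depending on the library. Among vehicle males the share was 0.244%, 0.257% and 0.458%, among weekly males 0.504%, 0.268% and 0.377%, and among daily males 0.404%, 0.517% and 0.202%. Vehicle females had 0.367%, 0.254% and 0.533%, weekly females 0.201%, 0.489% and 0.446%, and daily females 0.180%, 0.340% and 0.418%. Every group thus held a library with a low and one with a high share, and the 6 ranges overlapped. Group means ran from 0.313 ± 0.121% in daily females to 0.385 ± 0.140% in vehicle females (SD, n = 3).

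Most collagens followed the same libraries. In the first daily female, which had the lowest share, 12 of the 38 collagens had their lowest value of all 18 libraries, and 34 lay below the mean of their group. In the second weekly female 10 collagens had their highest value, and in the third vehicle female 7 did, with 36 above the group mean. *Col1a2* measured 392, 467 and 1410 CPM in vehicle males, 1090, 466 and 703 in weekly males and 664, 876 and 300 in daily males. In females it measured 613, 554 and 1220 CPM with vehicle, 293, 1130 and 613 with weekly and 273, 678 and 860 with daily prednisone. The third vehicle male thus stood well above the other two, and all 6 groups overlapped. *Col1a1* measured 273, 309 and 890 CPM in vehicle, 758, 319 and 511 in weekly and 456, 544 and 201 in daily males, and 457, 426 and 832 in vehicle, 212, 888 and 498 in weekly and 225, 448 and 634 in daily females. Its high and low libraries were those of *Col1a2*. *Col4a1* measured 454, 503 and 817 CPM in vehicle, 788, 530 and 593 in weekly and 623, 707 and 400 in daily males, where the groups overlapped, and 266, 657 and 593 CPM in weekly females.

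**Figure D2:**
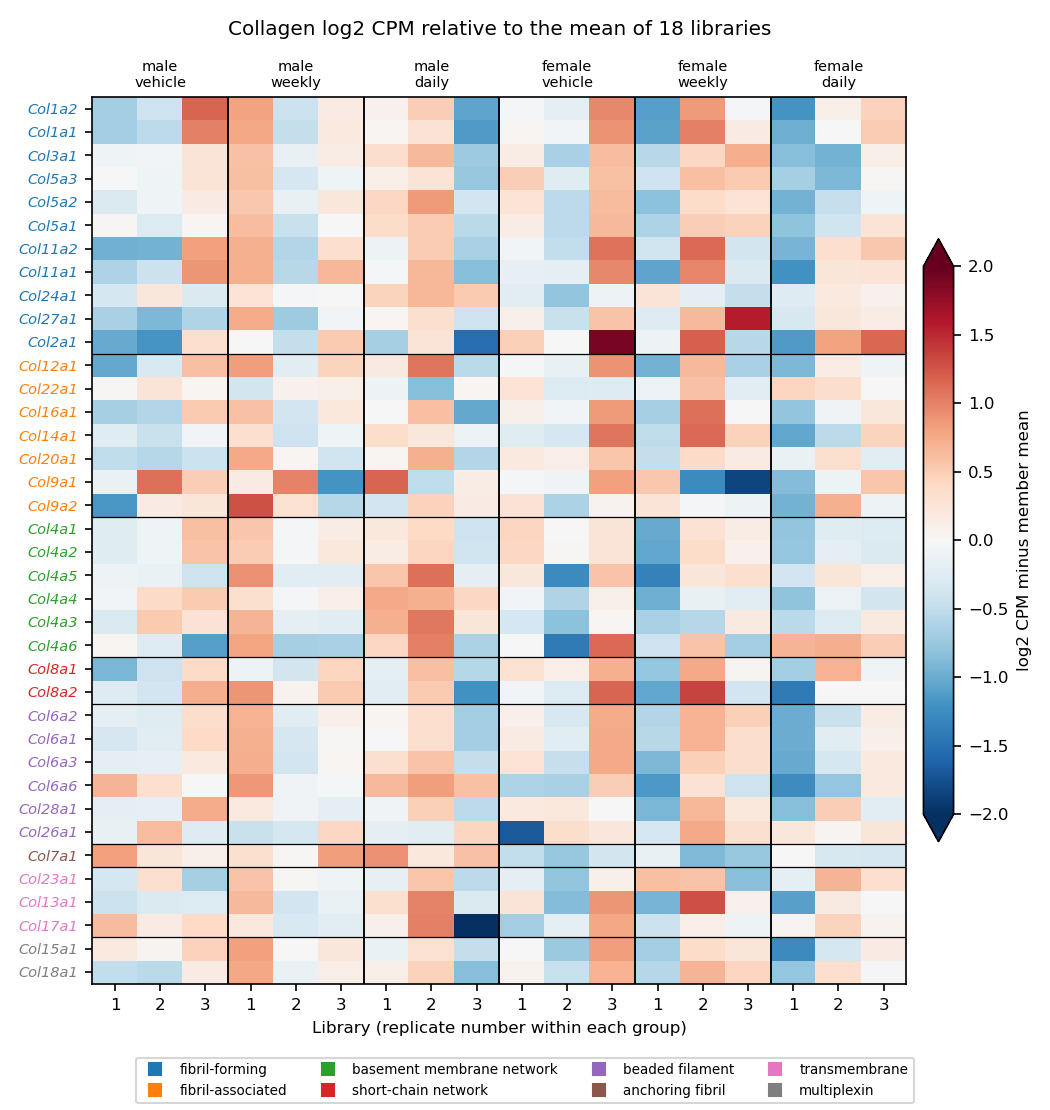
Log2 CPM of the 38 collagens in each of the 18 libraries, minus the mean of each gene over all libraries, with red above and blue below that mean. Columns are libraries in their groups and rows are genes in their classes. Most of a column is blue (the first daily female, the first weekly female, the third daily male) or red (the third vehicle female, the second weekly female, the second daily male), while *Col7a1*, *Col22a1*, *Col24a1* and *Col9a1* keep to other patterns.

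Fibroblast transcripts moved with the collagens. The 10 fibroblast markers, none of them a collagen, summed to 1250 CPM in the first daily female and 1440 CPM in the first weekly female, the libraries with the lowest collagen shares. They summed to 3270 CPM in the third vehicle female and 2930 CPM in the second daily male, the libraries with the highest. The 3 libraries lowest in collagen were also the 3 lowest for the tenocyte markers, at 478, 431 and 520 CPM. Adipocyte markers did not follow the same order, and reached 7640 CPM in the first weekly female and 9420 CPM in the third. Mitochondrially encoded transcripts took 11.7% and 13.1% of counts in the first daily and first weekly female and 36.4% in the second weekly female. The part of these differences in the collagen values was not tested apart from the fits with a fibroblast or adipocyte covariate given in the closing section.

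**Figure D3:**
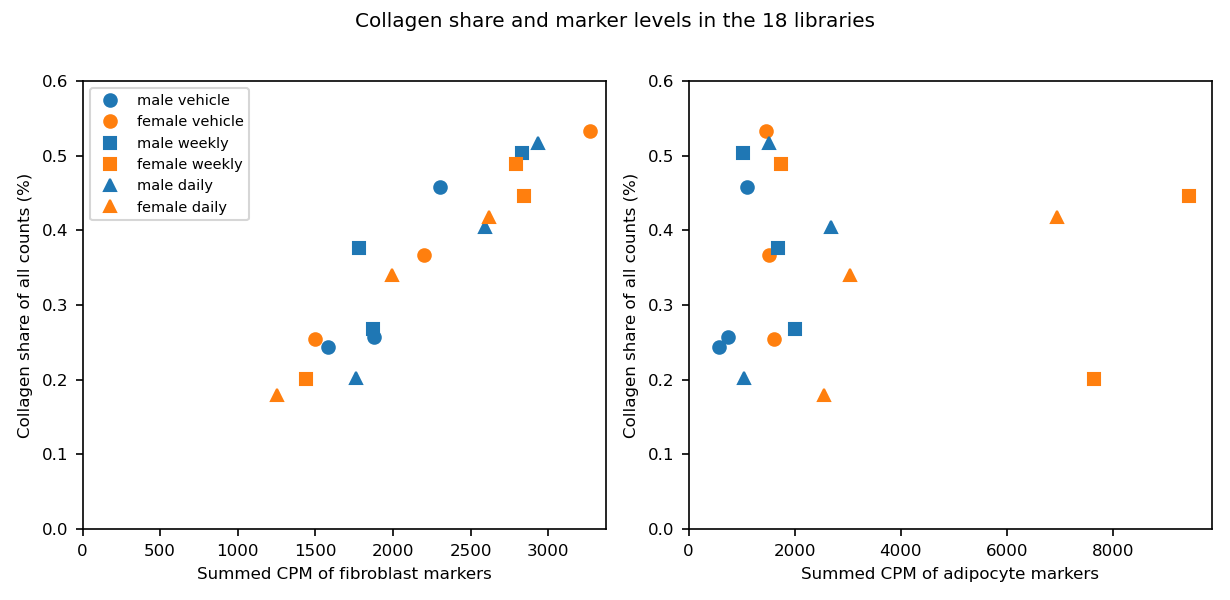
Share of all counts taken by the 44 collagen genes in each of the 18 libraries, against the summed CPM of 10 fibroblast markers (left) and 10 adipocyte markers (right). The share rises from 0.180% at 1250 CPM of fibroblast markers to 0.533% at 3270 CPM, and the 3 libraries with the most adipocyte transcripts have shares of 0.201%, 0.418% and 0.446%.

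The spread set the precision of every comparison. The biological coefficient of variation, the relative spread between replicates beyond counting error, had a median of 0.348 over the 38 collagens and of 0.183 over all tested genes, and 88.6% of tested genes had a lower value than the collagen median. For a comparison with vehicle within a sex, the log2 fold changes had a median SE of 0.42 for the collagens and 0.23 for all genes. As a description over the 18 libraries, 26 of the other 37 collagens had a Pearson correlation above 0.5 with *Col1a1*, and 11 above 0.8. The closest were *Col1a2* (0.99), *Col16a1* (0.96), *Col11a1* (0.95) and *Col6a1* (0.93). *Col7a1* (-0.32), *Col22a1* (-0.17), *Col24a1* (-0.14) and *Col9a1* (-0.11) were the 4 with a value below 0. The points of these correlations share libraries, depth and tissue composition.

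Several abundant pairs of chains that assemble in the same molecule kept close ratios across these libraries. For *Col4a1* and *Col4a2*, whose products form the common type IV molecule, the ratio of CPM values lay between 1.30 and 1.45 in all 18 libraries, a 1.11-fold range, whereas each gene on its own varied 3.07-fold and 3.06-fold. *Col1a1* to *Col1a2* lay between 0.621 and 0.824, and *Col6a1* to *Col6a2* between 0.892 and 1.17. Ratios were wider for *Col6a1* to *Col6a3* (1.58-fold range) and *Col5a1* to *Col5a2* (1.64-fold). They were wider still for the rarer type IV pairs, *Col4a3* to *Col4a4* (2.05-fold) and *Col4a5* to *Col4a6* (5.23-fold). On the log2 scale *Col4a1* and *Col4a2* had Pearson's r = 0.995 and Spearman's rho = 0.996 (permutation test with 100000 draws, two-sided, p = 1e-05 for each, the smallest it can give, and 1.67e-05 adjusted over 10 pairs). Without the 2 libraries farthest from the median r was 0.990, in males 0.993 and in females 0.996. For *Col1a1* and *Col1a2* r was 0.987 and rho 0.967, with the same p values, and r was 0.982 without the 2 farthest libraries. For *Col6a1* and *Col6a2* r was 0.984 and rho 0.95, with the same p values, and r was 0.975 without the 2 farthest.

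Other pairs had lower correlations. *Col4a3* and *Col4a4*, which join *Col4a5* in the type IV molecule of the glomerulus, had r = 0.823 and rho = 0.818 (permutation test, p = 6e-05 for each, 8.57e-05 adjusted), with r = 0.747 without the 2 farthest libraries, 0.867 in males and 0.560 in females. *Col9a1* and *Col9a2*, both near the limit of detection, had r = 0.250 and rho = 0.276 (permutation test, p = 0.317 and 0.271, both unchanged by the adjustment). The other 5 pairs, of types V, VI, VIII and XI and of *Col4a5* with *Col4a6*, had r between 0.709 and 0.941, with adjusted p values of at most 0.00274. These p values test r against 0, whereas the median r over all 703 pairs of collagens was 0.49, and 0.64 for deviations from the group means, so a p value here does not set chains of the same molecule apart from other collagens.

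The type IV pairs are also neighbours in the genome. *Col4a1* and *Col4a2* point away from each other with annotated starts 21 bases apart on chromosome 8, *Col4a3* and *Col4a4* with starts 72 bases apart on chromosome 1, and *Col4a5* and *Col4a6* with starts 1309 bases apart on the X chromosome. As annotated, *Col4a1* and *Col4a2* overlap at their starts, whereas a gap separates the genes of the other pairs. Because *Col4a1* and *Col4a2* had the tightest ratio of all pairs, their start regions are shown from RefSeq promoter windows of 250 bases before to 50 bases after the start (build GRCm38.p6), which were at hand for 35 of the 44 genes. The windows lie at chr8:11312777-11313076 on the minus strand and at chr8:11312555-11312854 on the plus strand and share 78 bases. Each line reads 5′ to 3′ in the direction of its gene, and capitals mark CCAAT or GGGCGG on either strand (the latter is the GC box).
Col4a1: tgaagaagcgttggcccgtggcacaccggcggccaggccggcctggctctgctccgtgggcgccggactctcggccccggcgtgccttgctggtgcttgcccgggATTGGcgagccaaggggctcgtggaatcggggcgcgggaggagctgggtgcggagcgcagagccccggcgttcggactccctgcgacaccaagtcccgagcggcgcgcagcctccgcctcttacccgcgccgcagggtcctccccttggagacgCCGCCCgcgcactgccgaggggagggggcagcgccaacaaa
Col4a2: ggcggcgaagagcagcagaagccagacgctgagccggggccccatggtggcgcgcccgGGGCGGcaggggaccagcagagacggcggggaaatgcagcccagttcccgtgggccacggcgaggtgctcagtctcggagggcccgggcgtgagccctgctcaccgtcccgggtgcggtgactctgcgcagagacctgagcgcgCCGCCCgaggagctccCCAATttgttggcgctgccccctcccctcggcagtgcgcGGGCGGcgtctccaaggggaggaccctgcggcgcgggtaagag
The *Col4a1* window has 1 CCAAT and 1 GGGCGG, and the *Col4a2* window has 1 CCAAT and 3 GGGCGG. The GGGCGG of *Col4a1* lies in the 78 shared bases and is the same site as the last GGGCGG of *Col4a2*. Of all 32851 promoter windows of this length, 37.4% hold CCAAT or its complement ATTGG and 35.7% hold GGGCGG or CCGCCC. Among the 35 collagen genes with a window, 13 hold the first motif and 22 the second. The *Col4a1* and *Col4a2* windows are 74.0% and 73.7% G or C, against a median of 52.7% over all windows. Neither window holds TATAAA (13.6% of all windows) or ACANNNTGT, the core of the consensus bound by the glucocorticoid receptor (6.85% of all windows), on either strand.

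The first comparison asked whether prednisone changed collagen transcripts relative to vehicle in each sex. A gene was called changed at an adjusted p under 0.05 in edgeR's quasi-likelihood test. With daily prednisone in males 0 of 38 collagens passed, where 6.46% of all tested genes did, and in females 0 of 38 passed, where 0.382% did. At an unadjusted p under 0.05 it was 1 collagen in each sex, against 22.8% and 17.3% of all genes. With weekly prednisone 0 of 38 passed in males and 0 of 38 in females, and 0% of all genes passed in either sex. At an unadjusted p under 0.05, 1 collagen in males and 0 in females passed, against 5.71% and 7.97% of all genes. DESeq2 and limma-voom also called 0 collagens in each of these 4 comparisons, with no adjusted p from DESeq2 for 6 collagens in daily males.

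**Figure D4:**
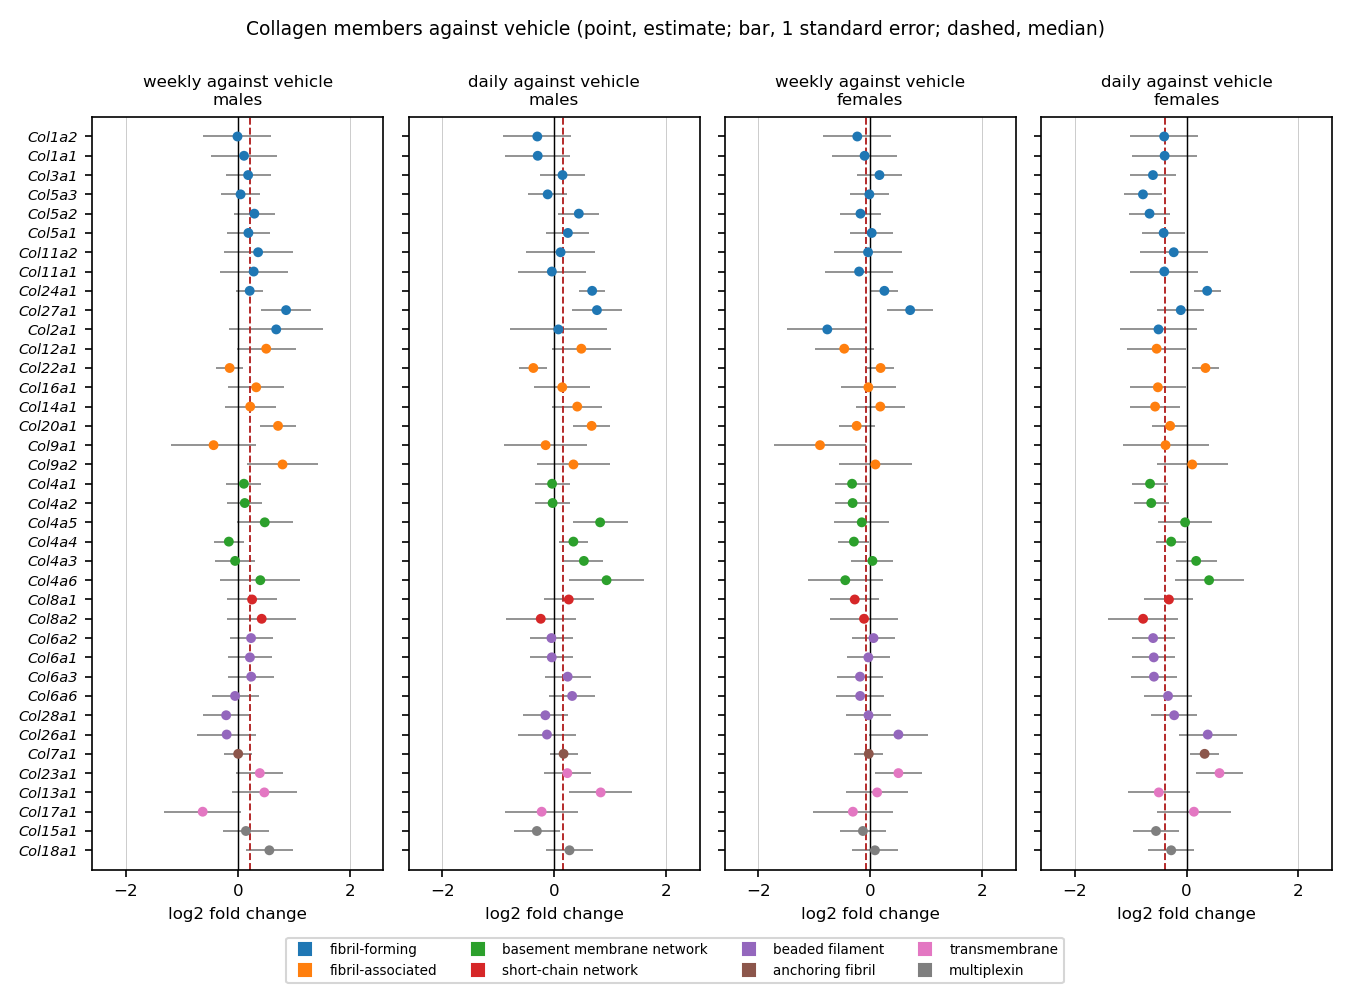
Log2 fold change against vehicle of the 38 collagens in 4 comparisons, with bars of 1 standard error and the median as a dashed line. The median is 0.22 for weekly males, 0.16 for daily males, -0.07 for weekly females and -0.38 for daily females, and most bars reach 0.

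In daily females 29 of the 38 collagens had a negative log2 fold change, with a median of -0.38 beside 0.01 for all tested genes, and none of them passed the test. Without the third vehicle female, the library with the highest collagen share, that median was 0.02. Of the 11 fibril-forming genes 10 were negative, with a median of -0.40, and of the 6 beaded-filament genes 5 were, with a median of -0.46. *Col4a1* measured 720, 540 and 641 CPM in vehicle and 310, 455 and 445 CPM in daily females, and *Col4a2* 518, 398 and 464 CPM against 227, 344 and 319 CPM. For both genes the daily libraries all lay under the vehicle libraries, with log2 fold changes of -0.65 ± 0.31 (SE, adjusted p = 0.298) and -0.63 ± 0.31 (adjusted p = 0.317). Together with *Col7a1*, whose daily values all lay above vehicle, they were the 3 collagens without overlap between the groups in females, against 23.1% of all tested genes. *Col5a3* had the smallest p, with 108, 65.4 and 116 CPM in vehicle and 48.8, 41.5 and 78.9 CPM in daily females (log2 fold change -0.78 ± 0.34, adjusted p = 0.255), and the groups overlapped. In the same libraries 0 of 10 fibroblast, 0 of 8 tenocyte and 0 of 7 endothelial markers were positive, with medians of -0.30, -0.53 and -0.41, and 0 of these were called.

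In daily males the signs were mixed, with 23 of 38 positive and a median of 0.16 beside 0.05 for all genes. The collagen median was -0.09 without the second daily male and 0.49 without the third vehicle male. Of the fibroblast markers 8 of 10 were positive, with a median of 0.36, and of the tenocyte markers 1 of 8 was, with a median of -0.27. *Col1a2* had a log2 fold change of -0.30 ± 0.61 (95% confidence interval -1.60 to 1) and *Col1a1* of -0.29 ± 0.58 (-1.54 to 0.95), and *Col4a1* stood at -0.04 ± 0.31 (-0.70 to 0.63). Leaving out the third vehicle male turned these to 0.54, 0.49 and 0.30, and leaving out the third daily male turned them to 0.06, 0.06 and 0.20. *Col24a1* and *Col27a1* were the 2 collagens whose daily and vehicle libraries did not overlap in males, against 33.4% of all genes, and both were higher with daily prednisone. *Col27a1*, a fibril-forming collagen of cartilage, measured 2.72, 2.26 and 2.81 CPM in vehicle and 4.45, 5.47 and 3.23 CPM in daily males (log2 fold change 0.77 ± 0.45, adjusted p = 0.324).

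In weekly males 29 of 38 log2 fold changes were positive, with a median of 0.22 beside 0.01 for all genes, and in weekly females 13 of 38 were, with a median of -0.07 beside 0.01. Neither sign was stable, since the median was -0.02 in males without the first weekly male and 0.27 in females without the third vehicle female. In weekly males 8 of 9 smooth muscle and pericyte, 7 of 7 Schwann cell and 9 of 10 adipocyte markers were positive as well, with medians of 0.57, 0.75 and 2.19. Positive too were 6 of 8 tenocyte, 5 of 7 endothelial and 6 of 10 fibroblast markers, with medians of 0.24, 0.13 and 0.02. None of these markers was called. The part of these markers in the collagen values was not tested. *Col20a1*, a fibril-associated collagen, measured 7.73, 7.36 and 8.12 CPM in vehicle males and 18.6, 11.3 and 8.29 CPM in weekly males (0.72 ± 0.33, adjusted p = 0.849). It was the only collagen without overlap in weekly males, against 16.7% of all genes, and in weekly females there was none, against 8.07%. *Col1a2* had log2 fold changes of -0.01 ± 0.61 (95% confidence interval -1.30 to 1.29) in weekly males and -0.23 ± 0.61 (-1.53 to 1.07) in weekly females. For *Col4a1* the values were 0.11 ± 0.31 (-0.56 to 0.77) and -0.33 ± 0.31 (-0.99 to 0.34). These intervals include changes of more than 1.5-fold in both directions for *Col1a2*, so the data do not show that its level was the same.

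Averaged over both sexes, daily prednisone against vehicle called 1 of 38 collagens, or 2.63%, where 15% of all tested genes were called and 29.2% had an unadjusted p under 0.05. The gene was *Col24a1* (chr3:145292472-145552011, plus strand), a fibril-forming collagen first known from bone and cornea. It measured 3.86, 5.89 and 4.06 CPM in vehicle males, 6.07, 4.90 and 5.02 in weekly males and 6.88, 7.98 and 7.25 in daily males. In females it measured 4.23, 2.83 and 4.66 CPM with vehicle, 6.03, 4.40 and 3.55 with weekly and 4.15, 5.72 and 5.32 with daily prednisone. All daily males lay above all vehicle males, while 1 of the 3 daily females lay within the vehicle range. The log2 fold change was 0.52 ± 0.17 (95% confidence interval 0.17 to 0.88, adjusted p = 0.0445 by edgeR, 0.0333 by DESeq2 and 0.0398 by limma-voom), with 0.68 ± 0.24 in males (adjusted p = 0.0921). The call was marginal. It held without the first daily female, the third vehicle female or the second vehicle male, and was lost without any of the other 9 libraries of the comparison (adjusted p 0.0600 to 0.112). It was also lost with the adipocyte score as a covariate (adjusted p = 0.362), where the log2 fold change was 0.49. In the same comparison 7 of 10 adipocyte markers were called higher in daily libraries, with a median of 2.59 over the 10, and their part in the *Col24a1* result was not tested further. With the fibroblast score as a covariate, 5 collagens were called, *Col24a1* (0.53, adjusted p = 0.0295) and, lower with daily prednisone, *Col15a1* (-0.43, adjusted p = 0.00137), *Col6a2*, *Col5a3* and *Col6a1*. The share of all tested genes called in that fit is not given here, so the count is not read as particular to collagens.

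The start region of *Col24a1*, the one collagen called with daily prednisone, is shown for chr3:145292222-145292521 on the plus strand (RefSeq window, GRCm38.p6), to be read beside those of the type IV pair.
Col24a1: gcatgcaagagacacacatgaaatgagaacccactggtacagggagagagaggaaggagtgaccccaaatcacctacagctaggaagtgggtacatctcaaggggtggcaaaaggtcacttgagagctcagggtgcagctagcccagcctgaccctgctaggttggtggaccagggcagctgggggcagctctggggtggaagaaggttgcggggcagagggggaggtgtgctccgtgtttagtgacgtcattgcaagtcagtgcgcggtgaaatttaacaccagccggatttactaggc
None of the motifs named for the type IV pair occurs in this window on either strand, so no letter is in capitals, and this says only that these letters are absent from it.

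Weekly prednisone against vehicle over both sexes called 0 of 38 collagens and 0% of all genes, with 1 collagen and 11% of all genes at an unadjusted p under 0.05 and 0 collagens by DESeq2 and limma-voom. That collagen was *Col27a1*, with a log2 fold change of 0.79 ± 0.31 (adjusted p = 0.351). In females it measured 4.66, 3.15 and 6.54 CPM with vehicle and 3.62, 6.89 and 13.2 CPM with weekly prednisone, and in weekly males 7.39, 2.59 and 4.18 CPM.

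Daily and weekly prednisone were compared directly, over 6 libraries in each sex. Per the study, the last weekly dose came days before the mice were killed, whereas daily mice were dosed every day. Regimen and time since the last dose therefore cannot be told apart in this comparison. In males 0 of 38 collagens and 0% of all genes were called, and 0 collagens against 13.5% of all genes had an unadjusted p under 0.05. In females 0 of 38 and 0% were called, and 1 collagen, *Col5a3* (-0.76 ± 0.34, adjusted p = 0.264), against 17.7% of all genes had an unadjusted p under 0.05. Over both sexes 0 of 38 were called where 8.17% of all genes were, and 0 against 24.1% had an unadjusted p under 0.05. DESeq2 and limma-voom called 0 collagens in each, though DESeq2 gave no adjusted p for 19 collagens in males and 10 in females. Over both sexes 29 of the 38 collagens were lower with daily than with weekly prednisone, with a median of -0.18 beside -0.02 for all genes. Leaving out 1 library turned the sign of this median, which was 0.09 without the second weekly female and -0.32 without the first.

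Whether the sexes responded differently was tested as an interaction. For daily prednisone 0 of 38 collagens and 0% of all genes were called, and 1 collagen, *Col5a2*, against 4.69% of all genes had an unadjusted p under 0.05. *Col5a2* measured 57.7, 66.2 and 79.3 CPM in vehicle and 93.9, 128 and 54.0 in daily males, and 85.2, 49.1 and 110 CPM in vehicle and 36.7, 51.5 and 66.3 in daily females, a difference of responses of -1.10 ± 0.52 on the log2 scale (adjusted p = 0.889). For weekly prednisone 0 of 38 and 0% were called, and 0 collagens against 2.63% of all genes had an unadjusted p under 0.05. DESeq2 and limma-voom called 0 collagens in either. The response of females minus that of males was negative for 33 of 38 collagens with daily prednisone (median -0.55 beside 0.03 for all genes), and without the third vehicle female that median was -0.21. With weekly prednisone it was negative for 31 of 38 (median -0.26 beside 0.01 for all genes), and without the third vehicle female that median was 0.07. Both interactions use the same vehicle libraries.

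Between the sexes, *Col7a1* and *Col4a4* were lower in females. Among vehicle mice, females against males, 0 of 38 collagens were called by edgeR where 0.765% of all genes were, and 3 against 10.4% of all genes had an unadjusted p under 0.05. DESeq2 called 1, *Col7a1*, and limma-voom 0. With females and males compared over all 3 treatments, a comparison added after the data had been seen, 2 of 38 collagens were called where 7.61% of all genes were, and 7 against 22.5% of all genes had an unadjusted p under 0.05. The 2 called are 5.26% of the collagens, no larger a share than that of all genes. DESeq2 called 4 and limma-voom 3, and the additional genes were *Col6a6* and, by DESeq2, *Col4a3*.

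*Col7a1* (chr9:108953586-108984875, plus strand) was lower in every female than in every male library. It measured 19.1, 15.8 and 20.8 CPM in vehicle, 24.2, 14.5 and 15.8 in weekly and 27.0, 21.5 and 21.2 in daily females. In males it measured 47.7, 31.9 and 28.9 CPM in vehicle, 33.6, 27.4 and 47.9 in weekly and 50.8, 31.1 and 40.2 in daily libraries. The highest female value, 27.0 CPM, was just under the lowest male value, 27.4 CPM, and 0.919% of all tested genes separated the 9 libraries of each sex in the same way in either direction. The log2 difference was -0.92 ± 0.15 (95% confidence interval -1.23 to -0.61, adjusted p = 0.000958 by edgeR and 0.00127 by limma-voom). By treatment it was -0.96 ± 0.26 with vehicle, -1 ± 0.25 with weekly and -0.81 ± 0.25 with daily prednisone, none of which passed the adjustment alone (adjusted p = 0.109, 0.0849 and 0.188). Leaving out each library in turn moved the difference between -1.01 and -0.84, and the call held each time. *Col7a1* was also the collagen least like *Col1a1* across libraries.

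*Col4a4* (chr1:82448423-82586849, minus strand) was lower in females as well, with some overlap. It measured 3.73, 2.50 and 4.21 CPM in vehicle, 1.88, 3.45 and 3.31 in weekly and 2.15, 3.52 and 2.96 in daily females, and 3.69, 5.10 and 5.62 in vehicle, 4.84, 3.75 and 4.25 in weekly and 6.6, 6.41 and 5.19 in daily males. The log2 difference was -0.70 ± 0.15 (95% confidence interval -1.03 to -0.38, adjusted p = 0.0106). By treatment it was -0.45 ± 0.27 with vehicle, -0.58 ± 0.27 with weekly and -1.07 ± 0.26 with daily prednisone. None of these passed the adjustment alone (adjusted p = 0.58, 0.361 and 0.0721 by edgeR), and the difference was largest in daily mice. Its neighbour *Col4a3* had -0.65 ± 0.21 (adjusted p = 0.0659), with 1.41 to 3.02 CPM in females and 2.11 to 5.60 in males. *Col6a6*, a chain of type VI, had -0.79 ± 0.25 (adjusted p = 0.0619), with 3.38 to 11.7 CPM in females and 7.88 to 15.2 in males. In the same comparison 10 of 10 adipocyte markers were higher in females, with a median of 1.32, and 4 of them were called, where 7.61% of all genes were. With the adipocyte score as a covariate *Col4a4* missed the threshold (-0.70, adjusted p = 0.0550) while *Col7a1* passed (-0.95, adjusted p = 0.0113). The fibroblast markers had a median of 0.06 and none was called.

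**Figure D5:**
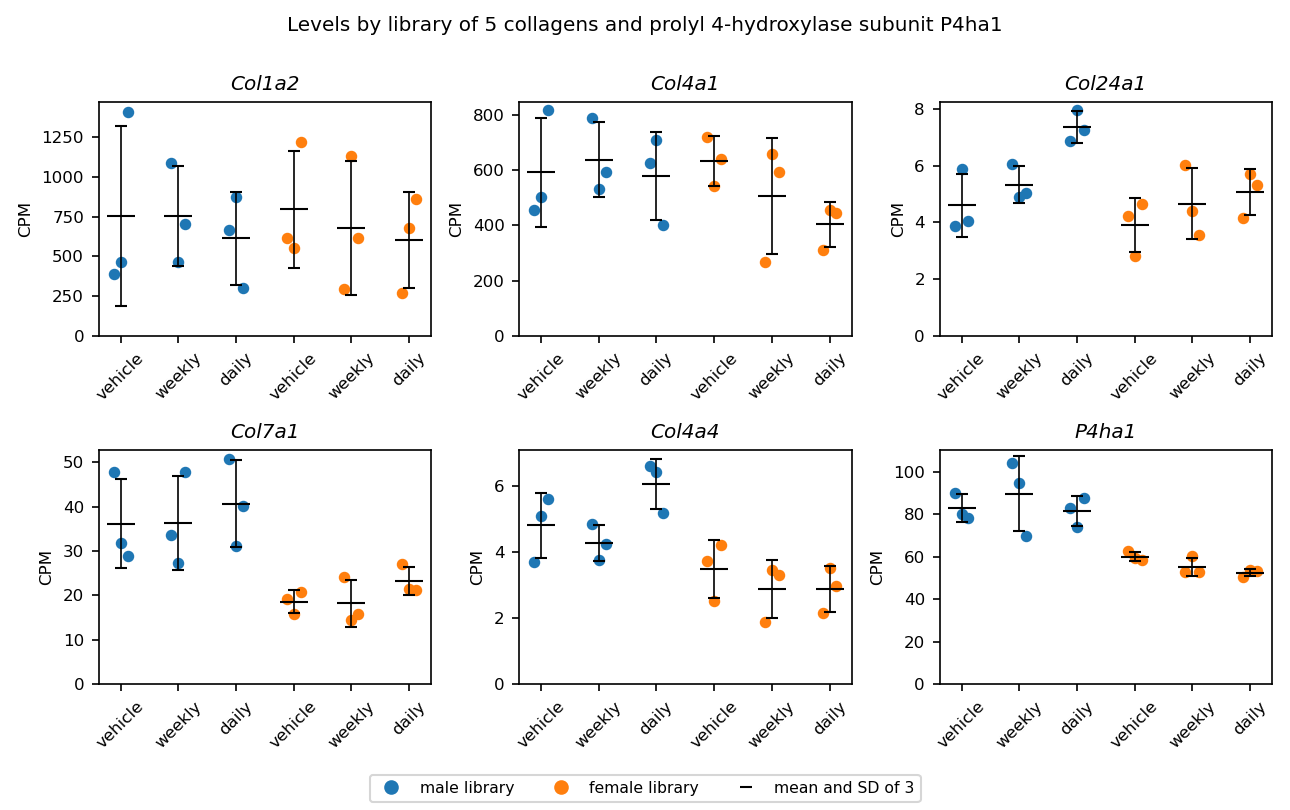
CPM by library of *Col1a2*, *Col4a1*, *Col24a1*, *Col7a1*, *Col4a4* and the prolyl hydroxylase subunit *P4ha1* in the 6 groups, males in blue and females in orange, with the mean and SD of 3. The 9 female libraries lie between 14.5 and 27.0 CPM for *Col7a1* and the 9 male libraries between 27.4 and 50.8 CPM, while *Col1a2* spans 273 to 1410 CPM with every group overlapping.

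The start regions of the 2 genes called between the sexes are shown for chr9:108953336-108953635 on the plus strand and chr1:82586800-82587099 on the minus strand (RefSeq windows, GRCm38.p6), with CCAAT and GGGCGG on either strand in capitals.
Col7a1: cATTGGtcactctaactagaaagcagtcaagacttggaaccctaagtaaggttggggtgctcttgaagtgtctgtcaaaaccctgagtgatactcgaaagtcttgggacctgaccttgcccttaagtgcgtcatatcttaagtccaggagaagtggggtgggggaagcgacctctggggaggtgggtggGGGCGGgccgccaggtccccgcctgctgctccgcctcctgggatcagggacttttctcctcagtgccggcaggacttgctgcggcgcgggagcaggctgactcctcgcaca
Col4a4: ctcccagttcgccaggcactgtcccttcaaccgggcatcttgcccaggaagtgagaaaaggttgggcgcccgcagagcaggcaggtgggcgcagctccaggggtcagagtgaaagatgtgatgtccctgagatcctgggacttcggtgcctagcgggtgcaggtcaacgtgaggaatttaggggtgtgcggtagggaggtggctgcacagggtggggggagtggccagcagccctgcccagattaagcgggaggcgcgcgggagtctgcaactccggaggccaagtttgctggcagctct
The *Col7a1* window has 1 CCAAT, read on the other strand at the 5′ end of the window, and 1 GGGCGG, and the *Col4a4* window has neither. TATAAA and ACANNNTGT occur in neither window.

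Genes that process collagen were described by lists. In them, counts are of the genes tested. Of 14 genes of hydroxylation and glycosylation, 12 of procollagen cleavage and crosslinking, 12 of degradation and its inhibitors, 9 receptors and 16 fibril-associated proteoglycans and glycoproteins, 0 were called in either sex with daily or weekly prednisone or in the means over both sexes. Of all tested genes, 15% were called with daily prednisone over both sexes, 6.46% in males, 0.382% in females and 0% with weekly prednisone. Of 9 genes of folding and secretion, 2 rose with daily prednisone over both sexes and 1 in males. *Tmem131*, which recruits the export machinery to procollagen, lay between 29.6 and 36.8 CPM in the 6 vehicle libraries and between 41.2 and 47.3 CPM in the 6 daily libraries (log2 fold change 0.40 ± 0.08 over both sexes, adjusted p = 0.00276, and 0.52 ± 0.11 in males, adjusted p = 0.0130). *Sec23a*, a coat protein of the vesicles that leave the endoplasmic reticulum, rose by 0.39 ± 0.12 on the log2 scale (adjusted p = 0.0409), with 54.3 to 81.7 CPM in vehicle and 71.7 to 105 CPM in daily libraries. Of 16 genes of the TGF-beta pathway, which drives collagen transcription in fibrosis, the receptor *Tgfbr1* rose by 0.44 ± 0.09 (adjusted p = 0.00405) and the ligand *Tgfb2* by 0.37 ± 0.10 (adjusted p = 0.0219). *Tgfbr1* was also called in males alone (0.58 ± 0.13, adjusted p = 0.0165). Its vehicle and daily ranges did not overlap, at 17.1 to 22.3 and 23.1 to 28.0 CPM. Those of *Tgfb2* overlapped, at 11.2 to 16.5 and 14.4 to 22.6 CPM. The share of all tested genes that separated the 6 vehicle and 6 daily libraries, as *Tgfbr1* and *Tmem131* did, is not given here. Medians over the lists stayed between -0.23 and 0.09 in this comparison, beside 0.02 for all genes.

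Between daily and weekly prednisone over both sexes, 8.17% of all tested genes were called. *Loxl1*, a crosslinking enzyme of elastin and collagen, was lower with daily prednisone (-0.59 ± 0.18, adjusted p = 0.0491), 1 of the 12 genes of its list. *Scx*, the transcription factor of tendon cells, was lower as well (-0.99 ± 0.23, adjusted p = 0.0174), 1 of the 8 tenocyte markers. *Scx* measured 2.06 to 5.14 CPM in daily and 4.61 to 8.97 CPM in weekly libraries. *Mia3*, *Sec23a* and *Tmem131*, 3 of the 9 genes of folding and secretion, were higher with daily than with weekly prednisone. So was *Tgfbr1* (0.38 ± 0.09, adjusted p = 0.0182), 1 of the 16 genes of the TGF-beta pathway. The 3 differed by 0.39 ± 0.09, 0.48 ± 0.12 and 0.37 ± 0.08 on the log2 scale (adjusted p = 0.0176, 0.0250 and 0.0105).

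Between the sexes, over all 3 treatments, a few genes that process collagen were called, where 7.61% of all tested genes were. *P4ha1* and *P4ha2*, the catalytic subunits of the prolyl 4-hydroxylases that stabilise the collagen helix, were lower in females, 2 of the 14 genes of their list. *P4ha1* measured 50.5 to 62.4 CPM in the 9 female and 69.8 to 104 CPM in the 9 male libraries (-0.60 ± 0.08, adjusted p = 0.000134), and *P4ha2* 26.9 to 35.1 CPM against 35.2 to 53.9 CPM (-0.49 ± 0.09, adjusted p = 0.00266). Neither pair of ranges overlapped, and 0.919% of all tested genes separated the 9 libraries of each sex in this way in either direction. Of the 9 genes of folding and secretion *Serpinh1*, the collagen chaperone HSP47, was lower in females (-0.56 ± 0.16, adjusted p = 0.0441), as was *Mia3*, the endoplasmic reticulum protein TANGO1 that loads procollagen for export (-0.43 ± 0.07, adjusted p = 0.00168). *Smad3*, the TGF-beta signal transducer, was lower in females (-0.72 ± 0.12, adjusted p = 0.000954), the only gene called of the 16 in its list. The medians of these 3 lists were -0.02, 0.03 and -0.05, beside 0.03 for all genes, and 0 genes of the lists of cleavage and crosslinking, degradation, receptors and proteoglycans were called.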

How the data were processed

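PolyA RNA of isolated quadriceps myofibers was sequenced in 18 libraries, 3 in each of 6 groups by sex and treatment. The authors aligned reads to mm10 and deposited whole-number read counts per gene, not normalised, in a single table. Per the labels, TopHat2 2.1.0, Bowtie2 2.2.6 and HTSeq were used, with the builds mm10 and mm9. The annotation release and strand setting are not given in the sources used here. The deposited table has a gene length, and no fold changes or p-values. Its columns were matched to samples through the description label, and 0 per-sample columns were left unused.

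Of 43430 identifiers, 42462 had a symbol, and the other 968 held no more than 0.0814% of any library. Counts were fitted in R 4.3.3 with edgeR 4.0.16 (filterByExpr with a minimum count of 10, TMM normalisation, robust quasi-likelihood F-test, 6 group means, 12 residual degrees of freedom), and p-values were adjusted by Benjamini-Hochberg over 13596 genes and called under 0.05. Intervals are at 95%. DESeq2 1.42.0, limma-voom (limma 3.58.1), other filters, a replicate block, fibroblast and adipocyte scores as covariates and leaving out each library were the alternatives. The fit was tested on simulated data in which genes varied independently, unlike the collagens here. That test therefore says nothing of genes that vary together. CPM used effective library sizes, log2 CPM a prior count of 2, and CPM per kilobase the principal transcript in GENCODE, whose order differs from that by the deposited length, where *Col4a1* ranks 1 and *Col1a2* 4. Library totals were 10506661 to 14686654.

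The genes and lists were chosen with earlier results of these data known, and the comparison of the sexes over all treatments was added after the data had been seen. Values by library are given for genes called in a comparison and for the 3 collagens highest per length, and at most 4 called genes are named per list. *Col4a2*, *Col5a2*, *Col5a3*, *Col20a1* and *Col27a1* were named after their values had been seen. Same-numbered replicates deviated together in each pair for daily and weekly females (correlations 0.50, 0.48 and 0.44). In the other 6 pairs of groups they did not. A block in the 6 libraries of daily and weekly females called 0 of 35 collagens. It called only 2 of all tested genes, so that count says little of collagens in particular. Replicate numbers are those of the titles. The column names number some libraries otherwise, and no source says that a number is shared between groups by design.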

Additional observations from a re-analysis of the deposited data

How the results depend on the processing

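The count for daily prednisone over both sexes changed under 13 of 21 alternatives, 9 of them leaving out 1 library. DESeq2 called 1 collagen for female against male vehicle and 4 for the sexes over all treatments. For daily prednisone over both sexes 0 were called without a filter on low counts (*Col24a1* 0.56, adjusted p = 0.0554), with the replicate block within each sex (0.54, adjusted p = 0.0691) and with the adipocyte score as a covariate (0.49), which also left 1 between the sexes (*Col7a1*) while *Col4a4* (-0.70) no longer passed. The replicate block across sexes called 1 for female against male vehicle, *Col7a1* (adjusted p = 0.0347). Those numbers did not pair the samples outside daily and weekly females, and with the block within each sex *Col6a6* and *Col4a3* were called between the sexes as well. With the fibroblast score as a covariate, 1 collagen was called for daily against vehicle males, 5 over both sexes, 2 for daily against weekly males, 1 for females and 1 over both, and 6 between the sexes, and the collagen median became 0.37 for daily against weekly females and 0.24 for the sex difference of the daily response. The share of all tested genes called with either score is not given here, so the counts are not read as particular to collagens. The cause of the changes between settings was not tested.

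Single genes near 0 turned sign. *Col1a2* in weekly males was 0.15 by limma-voom, 0.002 without a filter, 0.036 with the replicate block, 0.18 with the adipocyte score and 0.011 in a fit of the compared groups alone. *Col4a1* in daily males was 0.001 without a filter and 0.039 with the adipocyte score, *Col1a2* in daily females was 0.013 with the fibroblast score, and *Col1a1* in weekly females was 0.11 with the adipocyte score.

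Without the 3 most abundant collagens the mean share of counts was 0.152% in daily, 0.192% in vehicle and 0.201% in weekly females and 0.203%, 0.158% and 0.197% in daily, vehicle and weekly males. With mitochondrially encoded genes left out of the total, the means rose in all 6 groups, to 0.369%, 0.508% and 0.520% in daily, vehicle and weekly females and 0.463%, 0.437% and 0.523% in daily, vehicle and weekly males, and the highest was then weekly males instead of vehicle females.

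Leaving out each library in turn gave 0 or 1 collagens for daily prednisone over both sexes, 2 or 3 between the sexes over all treatments, and 0 in the other 11 comparisons. *Col24a1* stayed between 0.44 and 0.64. *Col1a2* ranged from -0.74 to 0.061 in daily females, -0.65 to 0.54 in daily males, -0.85 to 0.21 in weekly females and -0.38 to 0.81 in weekly males. *Col1a1* ranged from -0.58 to 0.49 in daily males, -0.72 to 0.28 in weekly females and -0.25 to 0.87 in weekly males, and *Col4a1* from -0.21 to 0.30 and from -0.078 to 0.42 in daily and weekly males. The highest values in males came without the third vehicle male. The collagen median ranged from -0.62 to 0.02 in daily females and from -0.45 to 0.27 in weekly females, both highest without the third vehicle female, and from -0.087 to 0.49 in daily males. In weekly males it ranged from -0.02 to 0.41. For daily against weekly females it ranged from -0.54 without the first weekly female to 0.20 without the second. Depth limits the 6 collagens with under 10 counts in some libraries.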
